A study of Mus musculus with 6 samples.

Results

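The osteoclast effector genes are 10 genes listed by name for their known roles in osteoclasts: *Nfatc1*, *Dcstamp*, *Ocstamp*, *Oscar*, *Calcr*, *Itgb3*, *Acp5*, *Ctsk*, *Tcirg1* and *Atp6v0d2*. They are 10 of the 44556 genes counted by RNA-seq in the calvaria (parietal bone) of newborn male C57BL/6 mice. The 3 control newborns carried OsxCre alone, and their 3 littermates carried OsxCre with both *Stat3* alleles floxed (labelled OsxCre;Stat3fl/fl), so that Cre, driven by *Osx*, was present in both genotypes. The deletion was thus aimed at early bone-forming cells, and not at osteoclasts, which come from another lineage. The comparison bears on whether genes of bone resorption differ when *Stat3* is deleted in bone-forming cells. Whether each library held 1 animal or a pool is not given in the sources used here.

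Osteoclasts are large multinucleated cells of the haematopoietic lineage that resorb bone. Osteoblast-lineage and other stromal cells make the ligands M-CSF and RANKL, which drive macrophage-like precursors to induce the transcription factor NFATc1, to fuse with each other and to switch on the resorption genes. The mature cell attaches to bone through an integrin, pumps acid onto the mineral with a V-ATPase and digests the collagen with secreted enzymes. Several of these genes are also used by other cells: *Nfatc1* by endothelial cells, *Itgb3* by platelets and their precursors, and *Acp5* and *Tcirg1* by macrophages.

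Read counts on genes summed to between 8193651 and 12080044 per library, and values are given as CPM, a gene's reads relative to the size of its library, scaled by edgeR's TMM method. *Stat3*, the targeted gene, was at 150, 135 and 141 CPM in OsxCre libraries 1, 2 and 3, and at 153, 155 and 155 CPM in the libraries labelled OsxCre;Stat3fl/fl (log2 fold change 0.12, SE 0.07, adjusted p = 0.442 by edgeR's quasi-likelihood test). Lower *Stat3* was thus not seen in the counts of the libraries labelled OsxCre;Stat3fl/fl, the floxed part covers only some exons, and every direction given here rests on the labels. Where libraries were left unscaled the log2 fold change of *Stat3* was -0.26, in a fit whose median over all genes was -0.38. All 10 osteoclast genes were counted in all 6 libraries, at 11 counts or more, and all 10 passed the filter on low counts that left 15600 genes for the test. No promoter sequence was used in any test. The stretches before the start sites of *Ctsk*, *Acp5* and *Oscar* are shown because these 3 genes are among those best known as direct targets of NFATc1 and its partners PU.1 and MITF. They are the 250 bases upstream of a RefSeq transcription start in GRCm38.p6, written 5′ to 3′ on the strand of the gene, with matches to the letters of an E-box (CACATG), a PU.1 motif (GAGGAA) and an NFAT core (TGGAAA) on either strand in capitals. *Ctsk* is taken from chr3:95498960-95499209 (plus strand), *Acp5* from chr9:22130599-22130848 (minus strand, of its 3 listed starts the only start with a match) and *Oscar* from chr7:3616158-3616407 (minus strand).
*Ctsk*: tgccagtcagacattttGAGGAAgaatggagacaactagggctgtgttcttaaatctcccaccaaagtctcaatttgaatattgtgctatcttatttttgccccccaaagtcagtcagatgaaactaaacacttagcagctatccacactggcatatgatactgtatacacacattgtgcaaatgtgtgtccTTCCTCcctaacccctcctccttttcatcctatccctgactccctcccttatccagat
*Acp5*: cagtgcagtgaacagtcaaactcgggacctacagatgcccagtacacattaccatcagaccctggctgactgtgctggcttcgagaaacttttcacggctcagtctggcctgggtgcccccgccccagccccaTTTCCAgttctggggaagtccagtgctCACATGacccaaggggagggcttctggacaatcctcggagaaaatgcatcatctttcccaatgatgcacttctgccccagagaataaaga
*Oscar*: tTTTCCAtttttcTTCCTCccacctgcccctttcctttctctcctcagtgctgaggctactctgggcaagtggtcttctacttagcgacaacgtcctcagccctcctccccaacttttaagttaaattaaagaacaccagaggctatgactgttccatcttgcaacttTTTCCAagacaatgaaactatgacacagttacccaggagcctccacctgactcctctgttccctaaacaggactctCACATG

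The first base of a match is counted from the start site. In *Ctsk* the PU.1 letters stood at -233 and -58. In *Acp5* the NFAT letters stood at -117 and the E-box letters at -90. In *Oscar* the NFAT letters stood at -249 and -82, the PU.1 letters at -237 and the E-box letters at -6. The 50 bases after the start, which are not printed, held NFAT letters at 1 in *Ctsk* and PU.1 letters at 21 in *Oscar*. Among the windows not printed, a start of *Tcirg1* held PU.1 letters at -16 and 17. No PU.1, NFAT or E-box letters were found in the other windows of *Tcirg1* and *Acp5* or in those of *Calcr*. Such short strings are common: of 32851 RefSeq promoters of the same 300-base window (250 before to 50 after the start), 28.3% held the PU.1 letters, 21.4% the NFAT letters and 14.2% the E-box letters. Windows were read for 5 of the 10 genes, with 10 starts in all, the promoters of the other 5 genes were not analysed here, and none of these 10 windows held the letters of a STAT site (TTCNNNGAA, in 8.30% of all promoters) or of an AP-1 site (TGANTCA, in 7.81%).

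None of the 10 osteoclast effector genes passed an adjusted p of 0.05 between the genotypes by edgeR's quasi-likelihood test in either direction. The closest was *Ocstamp*, a membrane protein needed for precursor fusion, which was 1.78-fold higher in the libraries labelled OsxCre;Stat3fl/fl at an adjusted p of 0.0509. Genes at both ends of the programme lay close to their control level, from *Ctsk*, the collagen-degrading protease cathepsin K, with a log2 fold change of 0.05, to *Oscar*, a costimulatory receptor, with -0.04. *Acp5*, the tartrate-resistant acid phosphatase (TRAP) by which osteoclasts are stained, had the lowest log2 fold change of the 10, at -0.18. Since whole bone was sequenced, fewer osteoclasts and less RNA of these genes per osteoclast cannot be told apart, and a like level could hide opposite differences in these quantities.

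Of all 15600 genes tested, 0.776% were called higher and 0.481% lower in the libraries labelled OsxCre;Stat3fl/fl at an adjusted p under 0.05. Those calls, 196 in all, depended on the libraries: leaving out any 1 of the 6 brought them to between 12 (without OsxCre;Stat3fl/fl library 3) and 103 (without OsxCre library 3). At an unadjusted p under 0.05, 2 of the 10 genes (*Ocstamp* and *Itgb3*) were higher, against 8.03% of all genes, and 0 were lower, against 8.34%. By other tools, 1 of the 10 (*Ocstamp*) passed the adjusted p, higher, under DESeq2's Wald test, where 1.95% of all genes were called higher, and under limma-voom, where 0.756% were. The CPM ranges of the genotypes did not overlap for 2 of the 10 (*Ocstamp* and *Nfatc1*), both higher in the libraries labelled OsxCre;Stat3fl/fl, against 10.8% of all genes, and for none in the lower direction, against 12.2%. The log2 fold change was positive for 8 of the 10, against 49.3% of all genes, and its median was 0.18, against -0.0037 over all genes. The median of the 10 was 0.092 without OsxCre library 2 and lay between 0.14 and 0.25 without any other single library. With no scaling for library size the median of all genes was -0.38, and the signs of *Ctsk*, *Dcstamp*, *Atp6v0d2*, *Tcirg1*, *Itgb3* and *Nfatc1* turned negative, while 8 of the 10 genes again lay above the median of all genes.

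**Figure D1:**
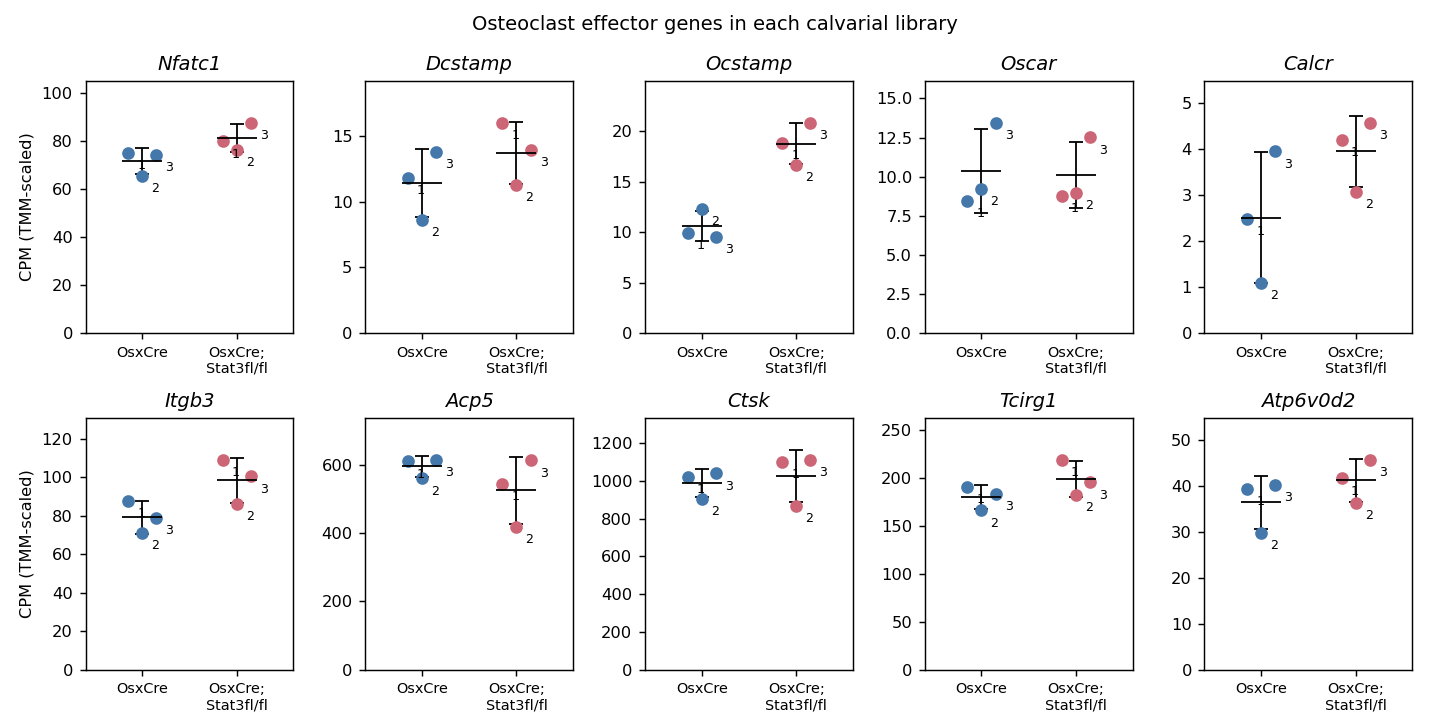
TMM-scaled CPM of each osteoclast effector gene (vertical axis, from 0) in the 3 OsxCre libraries (blue) and the 3 libraries labelled OsxCre;Stat3fl/fl (red), with replicate numbers beside the points and the mean ± SD (n = 3) in black. The ranges of the genotypes are apart for *Ocstamp* and *Nfatc1* and overlap for the other 8 genes.

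*Nfatc1*, the transcription factor at the top of the programme, was at 75.3, 65.6 and 74.3 CPM in OsxCre libraries 1, 2 and 3 and at 80.0, 76.5 and 87.6 CPM in OsxCre;Stat3fl/fl libraries 1, 2 and 3. All 3 libraries labelled OsxCre;Stat3fl/fl were above all 3 controls, though the lowest of them was only just above the highest control. The log2 fold change was 0.18 (SE 0.09, 95% interval -0.02 to 0.38, adjusted p = 0.351, edgeR), and the exact permutation test gave p = 0.1, the smallest that 3 libraries against 3 allow. Ranges that do not overlap always give that value, so it adds nothing to them. By the same test the genes with overlapping ranges had p from 0.2 (*Calcr* and *Itgb3*) to 0.8 (*Oscar*). A lncRNA gene (Gm52342) lies over *Nfatc1* in the RefSeq annotation, and reads of overlapping genes may not have been told apart.

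The fusion genes are a related pair. DC-STAMP, encoded by *Dcstamp* (chr15:39745930-39760938), and OC-STAMP, encoded by *Ocstamp* (chr2:165395450-165400394), are multipass membrane proteins that mononuclear precursors need in order to merge. *Ocstamp* was at 9.90, 12.3 and 9.57 CPM in OsxCre libraries 1 to 3 (104, 124 and 114 reads) and at 18.9, 16.7 and 20.8 CPM in OsxCre;Stat3fl/fl libraries 1 to 3 (157, 136 and 178 reads). Every library labelled OsxCre;Stat3fl/fl was above every control, also in reads before any scaling, although these libraries were the smaller ones. The means were 10.6 ± 1.49 and 18.8 ± 2.07 CPM (SD, n = 3 each), a log2 fold change of 0.83 (SE 0.15, 95% interval 0.48 to 1.18, which is 1.39-fold to 2.27-fold). The unadjusted p was 0.000648 and the adjusted p 0.0509 by edgeR's quasi-likelihood test, and the exact permutation p was 0.1, the smallest possible.

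The log2 fold change of *Ocstamp* was positive in all 15 alternative settings, and its adjusted p was under 0.05 in 3 of them: 0.0182 without the low-count filter (where 0.892% of all genes were called higher), 0.00506 with DESeq2's Wald test and 0.0485 with limma-voom. In the fits that left out 1 library the log2 fold change of *Ocstamp* ran from 0.75 to 0.95 and the adjusted p from 0.0725 to 0.188. *Dcstamp* was at 11.8, 8.63 and 13.8 CPM in OsxCre libraries 1 to 3 and at 16.0, 11.3 and 13.9 CPM in OsxCre;Stat3fl/fl libraries 1 to 3. The genotypes overlapped for *Dcstamp*, with library 2 the lowest of each (log2 fold change 0.27, SE 0.21, 95% interval -0.22 to 0.75, adjusted p = 0.586). The ratio of *Ocstamp* to *Dcstamp* CPM was 0.839, 1.43 and 0.695 in the controls and 1.18, 1.48 and 1.496 in the libraries labelled OsxCre;Stat3fl/fl, so the ratio overlapped because of OsxCre library 2. Divided by the geometric mean of the other 9 genes, a measure chosen after the values were seen, *Ocstamp* was at 0.170, 0.265 and 0.148 in the controls and at 0.281, 0.301 and 0.296 in the libraries labelled OsxCre;Stat3fl/fl, with no overlap.

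The receptors gave no call. *Oscar* (chr7:3609813-3616157), an immunoglobulin-like receptor that signals together with RANK, was at 8.47, 9.22 and 13.4 CPM in OsxCre libraries 1 to 3 and at 8.77, 8.95 and 12.5 CPM in OsxCre;Stat3fl/fl libraries 1 to 3. Library 3 was the highest of each genotype for *Oscar* and the ranges overlapped (log2 fold change -0.04, SE 0.23, 95% interval -0.58 to 0.49, adjusted p = 0.955). *Calcr* (chr6:3685678-3764713), the receptor through which calcitonin arrests osteoclasts, was the least counted gene, at 2.47, 1.09 and 3.94 CPM (26, 11 and 47 reads) in the controls and 4.20, 3.06 and 4.56 CPM (35, 25 and 39 reads) in the libraries labelled OsxCre;Stat3fl/fl. OsxCre library 2 stood lowest and the genotypes overlapped. The log2 fold change of *Calcr*, 0.64, came with an SE of 0.43 and a 95% interval from -0.35 to 1.63 (adjusted p = 0.508), an interval that holds both no difference and a 2-fold one. *Calcr* holds the genes of Mir653 and Mir489 on its own strand, which overlap no exon of it, and a lncRNA gene, Gm33576.

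*Itgb3* (chr11:104608000-104670476), the β3 chain of the αvβ3 integrin that anchors the osteoclast to bone, was at 87.8, 70.9 and 78.9 CPM in OsxCre libraries 1 to 3 and at 109, 85.9 and 100 CPM in OsxCre;Stat3fl/fl libraries 1 to 3. The lowest library labelled OsxCre;Stat3fl/fl (library 2) was below the highest control (library 1), and the other libraries of that genotype lay above all controls. The log2 fold change of *Itgb3* was 0.31 (SE 0.11, 95% interval 0.05 to 0.58), with an unadjusted p of 0.0257 and an adjusted p of 0.229 by edgeR. Its partner chain *Itgav* was at 3.33, 1.69 and 2.43 CPM in the controls and at 4.56, 4.41 and 5.96 CPM in the libraries labelled OsxCre;Stat3fl/fl, without overlap (log2 fold change 1.00, SE 0.29, adjusted p = 0.152).

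The enzymes and the proton pump subunits gave no call either. *Acp5* (chr9:22126727-22135746) was at 610, 559 and 614 CPM in OsxCre libraries 1 to 3 and at 544, 417 and 612 CPM in OsxCre;Stat3fl/fl libraries 1 to 3. OsxCre;Stat3fl/fl library 3 matched the controls, library 2 was far lower, and the genotypes overlapped (log2 fold change -0.18, SE 0.14, 95% interval -0.51 to 0.15, adjusted p = 0.582). Without scaling the log2 fold change of *Acp5* was -0.56 with an adjusted p of 0.0381, in a fit where the median gene stood at -0.38 and 34.9% of all genes were called lower. *Ctsk* (chr3:95499210-95509387) was at 1022, 905 and 1038 CPM in the controls and at 1100, 866 and 1111 CPM in the libraries labelled OsxCre;Stat3fl/fl. For *Ctsk* library 2 was the lowest of both genotypes, and the 95% interval of the log2 fold change ran from -0.23 to 0.34 (SE 0.12, adjusted p = 0.884).

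*Tcirg1* (chr19:3896050-3907133) encodes the a3 subunit that directs the V-ATPase to the resorbing membrane of the osteoclast. It was at 191, 166 and 184 CPM in OsxCre libraries 1 to 3 and at 219, 183 and 195 CPM in OsxCre;Stat3fl/fl libraries 1 to 3, and the genotypes overlapped (log2 fold change 0.14, SE 0.09, 95% interval -0.08 to 0.36, adjusted p = 0.504). *Atp6v0d2* (chr4:19876838-19922566), which encodes the d2 subunit of the same pump and also takes part in fusion, was at 39.2, 29.7 and 40.1 CPM in the controls and at 41.6, 36.3 and 45.6 CPM in the libraries labelled OsxCre;Stat3fl/fl. The genotypes overlapped for *Atp6v0d2* too, with library 2 the lowest of each (log2 fold change 0.18, SE 0.14, 95% interval -0.14 to 0.50, adjusted p = 0.581).

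**Figure D2:**
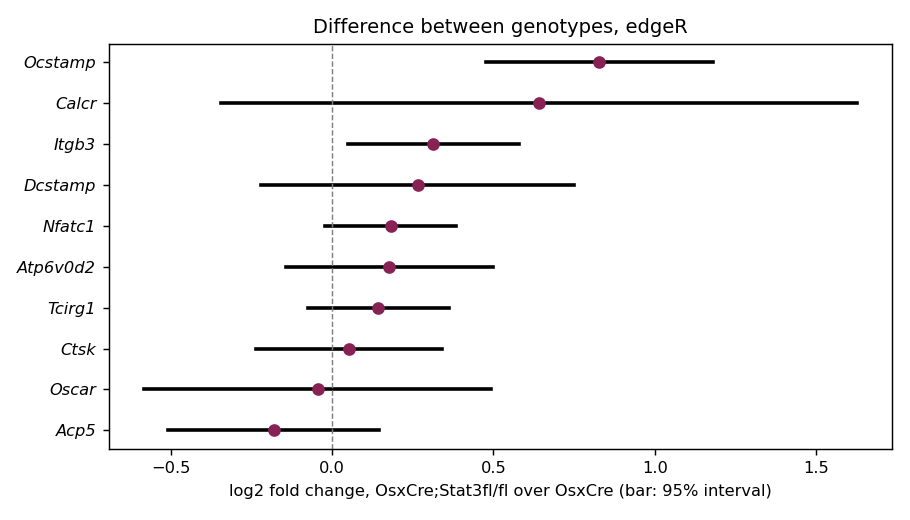
Log2 fold change (horizontal axis) of each osteoclast effector gene in the libraries labelled OsxCre;Stat3fl/fl over OsxCre, from edgeR's quasi-likelihood fit, with its 95% interval as a bar. The intervals of *Ocstamp* (0.48 to 1.18) and *Itgb3* (0.05 to 0.58) lie above 0, before adjustment over all genes, and that of *Calcr* is the widest.

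Summed over the 10 genes, the level was 2057, 1828 and 2070 CPM in OsxCre libraries 1 to 3 and 2141, 1704 and 2204 CPM in OsxCre;Stat3fl/fl libraries 1 to 3. The highest and the lowest sums were both in libraries labelled OsxCre;Stat3fl/fl, and the means were 1985 ± 136 and 2016 ± 272 CPM (SD, n = 3 each). *Ctsk* and *Acp5* made up between 75.3% and 80.1% of the sum in every library, so the sum mostly follows these 2 genes.

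The genes shared a pattern across libraries within each genotype. Library 2 was the lowest OsxCre library for 8 of the 10 genes, where 34.1% of all genes tested were lowest in that library. Library 2 was likewise the lowest library labelled OsxCre;Stat3fl/fl for 9 of the 10, against 30.7% of all genes. The exceptions were *Ocstamp* and *Oscar* among the controls, and *Oscar* among the libraries labelled OsxCre;Stat3fl/fl. Of the 9 marker lists of other cell types, 1 had its lowest sum of each genotype in library 2, the B-lymphoid list (17.0 CPM of 17.0 to 22.2 CPM in OsxCre, and 18.4 CPM of 18.4 to 22.9 CPM in the libraries labelled OsxCre;Stat3fl/fl). In a single genotype, a lowest sum in library 2 was shared by more lists. Among the controls these were also the osteoblast, erythroid, skeletal muscle and endothelial lists. Among the libraries labelled OsxCre;Stat3fl/fl they were also the neutrophil, chondrocyte and neuron lists. The summed neuron markers were at 407 CPM in OsxCre library 2, above the other controls (102 CPM each), and at 29.7 CPM in OsxCre;Stat3fl/fl library 2, below the others (414 and 280 CPM). The summed skeletal muscle markers were the lowest of the controls in OsxCre library 2 (25968 CPM) and the highest of their genotype in OsxCre;Stat3fl/fl library 2 (46338 CPM).

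**Figure D3:**
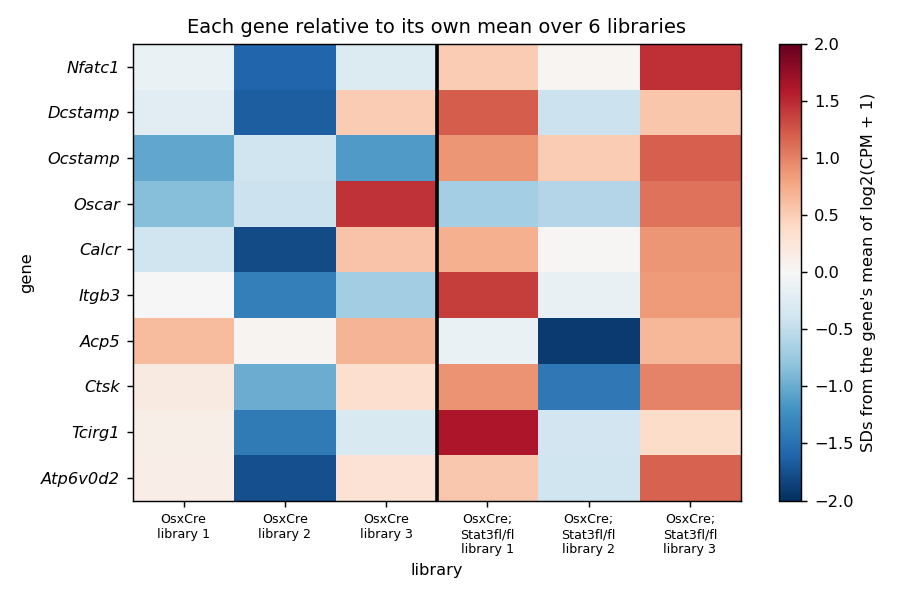
Heat map of the 10 osteoclast effector genes (rows) in the 6 libraries (columns), coloured by the distance in SDs from the gene's own mean of log2(CPM + 1). Library 2 of each genotype is the palest red or the deepest blue of its genotype for most genes, while *Ocstamp* follows the genotype.

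As a description of how closely each gene followed the rest, Pearson's r was taken between its log2(CPM + 1) and the mean of the other 9. The 6 libraries differ in depth and genotype, so r mixes differences between genotypes with those within a genotype. It was 0.95 for *Atp6v0d2*, 0.91 for *Dcstamp*, 0.89 for *Calcr*, 0.88 for *Nfatc1*, 0.85 for *Ctsk*, 0.82 for *Itgb3* and 0.79 for *Tcirg1*. It was lower for *Ocstamp* (0.40), *Oscar* (0.32) and *Acp5* (0.23). Among 12170 other genes with a mean of at least 5 CPM, the 5 whose pattern over the 6 libraries was most like the mean of the osteoclast genes were *Nr2f2* (r = 0.985), *E130308A19Rik* (0.980), *Lhx6* (0.980), *Kit* (0.975) and *Tapbp* (0.972). These 5 were picked as the highest coefficients, and none of the 5 passed the adjusted p between the genotypes.

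Levels were compared between genes per kilobase of transcript (RPKM, from TMM-scaled CPM and the longest GENCODE vM1 coding transcript). The order of the mean RPKM was *Ctsk* (680), *Acp5* (398), *Tcirg1* (62.3), *Nfatc1* (15.6), *Itgb3* (15.5), *Atp6v0d2* (15.3), *Dcstamp* (6.30), *Oscar* (5.59), *Ocstamp* (4.02) and *Calcr* (0.858). The ranges over the 6 libraries overlapped between neighbours from *Nfatc1* to *Itgb3* to *Atp6v0d2* and from *Dcstamp* to *Oscar* to *Ocstamp*, and were apart between all other neighbours. With the length of all exons in place of the longest transcript, the middle order became *Itgb3*, *Atp6v0d2*, *Nfatc1*.

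The pump subunits have paralogs that most cells use. The ubiquitous *Atp6v0d1* was at a mean of 54.2 RPKM, above the osteoclast form *Atp6v0d2*, and the ratio of *Atp6v0d2* to *Atp6v0d1* was 0.269 ± 0.040 in OsxCre and 0.294 ± 0.038 in the libraries labelled OsxCre;Stat3fl/fl (SD, n = 3 each, exact permutation p = 0.6). *Tcirg1* was above its paralogs *Atp6v0a2* (12.4 RPKM), *Atp6v0a1* (2.88 RPKM) and *Atp6v0a4* (0.831 RPKM). The ratio of *Tcirg1* to *Atp6v0a1* was 26.8 ± 3.54 in the controls and 18.6 ± 2.10 in the libraries labelled OsxCre;Stat3fl/fl, with no overlap (exact permutation p = 0.1, the smallest possible, and 0.267 after Benjamini-Hochberg adjustment over 4 ratios). *Atp6v0a1* itself was at 8.56, 9.62 and 8.56 CPM in the controls and at 14.1, 14.7 and 13.7 CPM in the libraries labelled OsxCre;Stat3fl/fl (log2 fold change 0.67, SE 0.13, adjusted p = 0.0631). The ratios of *Tcirg1* to *Atp6v0a2* and to *Atp6v0a4* each had an exact permutation p of 0.2.

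**Figure D4:**
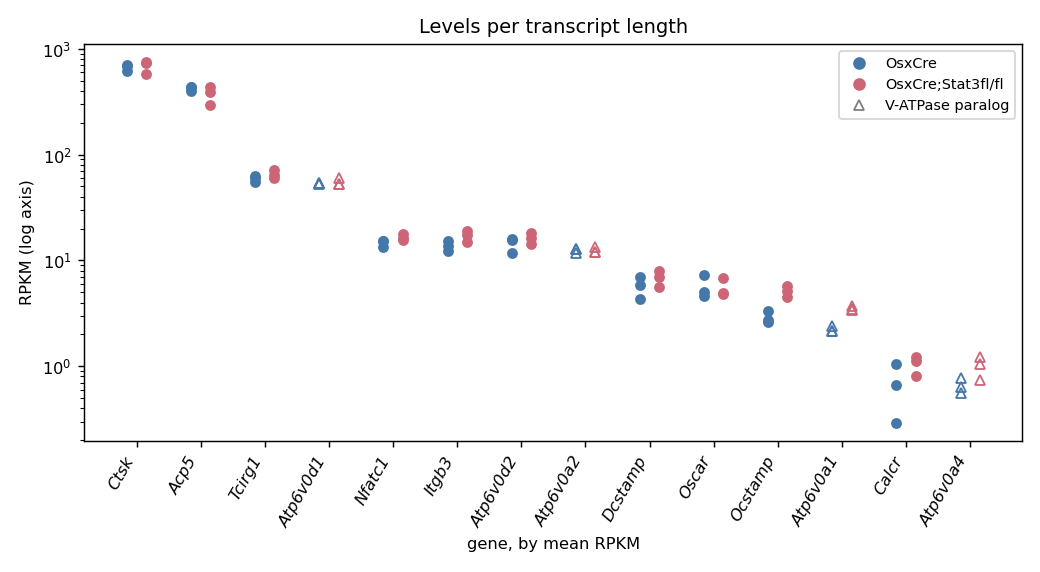
RPKM (log axis) of the osteoclast effector genes (filled circles) and of V-ATPase paralogs (open triangles) in each OsxCre library (blue) and each library labelled OsxCre;Stat3fl/fl (red), ordered by mean. *Ctsk* and *Acp5* lie far above the rest, at means of 680 and 398 RPKM, and *Calcr* lies lowest of the 10 at 0.858 RPKM.

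Other genes of the resorption pathway were read from lists drawn up by function. Of all 15600 genes tested, 8.03% were higher and 8.34% lower at an unadjusted p under 0.05 by edgeR. At an adjusted p under 0.05 these shares were 0.776% and 0.481%. Of 16 further acid and matrix resorption genes, 1 passed the adjusted p, in the higher direction, and 3 were higher and 1 lower at an unadjusted p under 0.05 (median log2 fold change 0.10). The gene that passed was *Ctsl*, a lysosomal cysteine protease made by many cell types. It rose from 253, 234 and 231 CPM to 323, 356 and 392 CPM, with no overlap (log2 fold change 0.58, SE 0.09, adjusted p = 0.0365, edgeR). The call for *Ctsl* was lost when any 1 of the 6 libraries was left out, with adjusted p from 0.0558 to 0.139. Its log2 fold change in those fits, which hold fewer libraries, ran from 0.51 to 0.64. The next genes by p were *Rab7*, a GTPase of late endosomes (log2 fold change 0.33, adjusted p = 0.0881, and 0.00756 by DESeq2), *Ctss*, a protease of antigen-presenting cells (0.74, 0.103), and *Mmp14*, a membrane metalloproteinase also made by osteoblasts (-0.27, 0.183). Of 21 V-ATPase subunits outside the 10 genes, 0 passed the adjusted p by edgeR and 5 were higher and 0 lower at an unadjusted p under 0.05 (median 0.09), among them *Atp6v0c* (0.34, 0.0988, and 0.0444 by DESeq2, the only V-ATPase call of that test), *Atp6v1h* (0.30, 0.128) and *Atp6v1c1* (0.20, 0.281).

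Of the 27 genes listed for RANK signalling and osteoclast transcription, 23 were tested and 0 passed the adjusted p by edgeR, with 2 higher and 3 lower at an unadjusted p under 0.05 (median 0.05). Over all genes tested, 8.03% were higher and 8.34% lower at that unadjusted p. *Map3k14*, the kinase NIK of the alternative NF-κB pathway, stood at -0.58 on the log2 scale of fold changes (adjusted p = 0.0779) and *Prdm1*, a repressor of anti-osteoclastic genes, at -0.66 (adjusted p = 0.14). *Fos*, an AP-1 subunit required for osteoclast formation, stood at 0.90 (adjusted p = 0.181), from 12.2, 14.7 and 27.7 CPM to 29.8, 40.0 and 32.5 CPM, and *Ppp3ca*, a catalytic subunit of calcineurin, -0.24 (adjusted p = 0.217). *Fos* passed without OsxCre library 3 (adjusted p = 0.0263) and by DESeq2 (0.0337), and *Map3k14* passed with library totals in place of TMM (0.0489). Of the 10 costimulatory receptor genes, 8 were tested and none was past an unadjusted p of 0.05 by edgeR or DESeq2 (median -0.15): *Tyrobp*, the adaptor DAP12, had -0.15, *Syk*, the kinase it recruits, -0.16, *Siglec15* 0.29 and *Pirb* -0.15.

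All 8 listed inhibitors of osteoclast formation were tested, of which 1 passed the adjusted p, higher, and 3 were higher and 1 lower at an unadjusted p under 0.05 (median 0.07). The shares of all genes tested were 0.776% higher at the adjusted p, and 8.03% higher and 8.34% lower at the unadjusted p. *Nfkbia*, which encodes the NF-κB inhibitor IκBα, rose from 56.3, 59.1 and 53.2 CPM to 79.7, 81.5 and 74.3 CPM, with no overlap (log2 fold change 0.48, SE 0.08, adjusted p = 0.0345, edgeR). The call for *Nfkbia* was lost without any 1 library (adjusted p from 0.0799 to 0.121) and with library totals in place of TMM (0.0575). Without any 1 library its log2 fold change ran from 0.44 to 0.52. *Irf8*, a macrophage transcription factor that restrains NFATc1, stood at 0.62 on the log2 scale of fold changes (adjusted p = 0.0861) and *Id2* at 0.27 (adjusted p = 0.204). Of 19 genes for fusion and podosomes outside the 10, 0 passed the adjusted p by edgeR or DESeq2, and 4 were higher and 1 lower at an unadjusted p under 0.05 (median 0.08), among them the scaffold *Sh3pxd2b* (-0.29, adjusted p = 0.128), *Cbl* (0.28, 0.264) and the tetraspanin *Cd9* (0.23, 0.279).

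The ligands that stromal cells offer to osteoclast precursors were tested as 4 genes, and none was past an unadjusted p of 0.05 by edgeR or DESeq2 (median 0.06). *Tnfsf11*, which encodes RANKL, was at 7.04, 7.83 and 6.80 CPM in the controls and at 7.81, 3.68 and 10.1 CPM in the libraries labelled OsxCre;Stat3fl/fl, which spread to both sides of the controls (log2 fold change -0.01, SE 0.33, adjusted p = 0.996). Its decoy receptor *Tnfrsf11b* (osteoprotegerin) had a log2 fold change of -0.02 (SE 0.25, adjusted p = 0.987). *Csf1*, which encodes M-CSF, had 0.12 (SE 0.09, adjusted p = 0.575) and *Il34*, the other ligand of the M-CSF receptor, 0.14 (SE 0.15, adjusted p = 0.698).

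**Figure D5:**
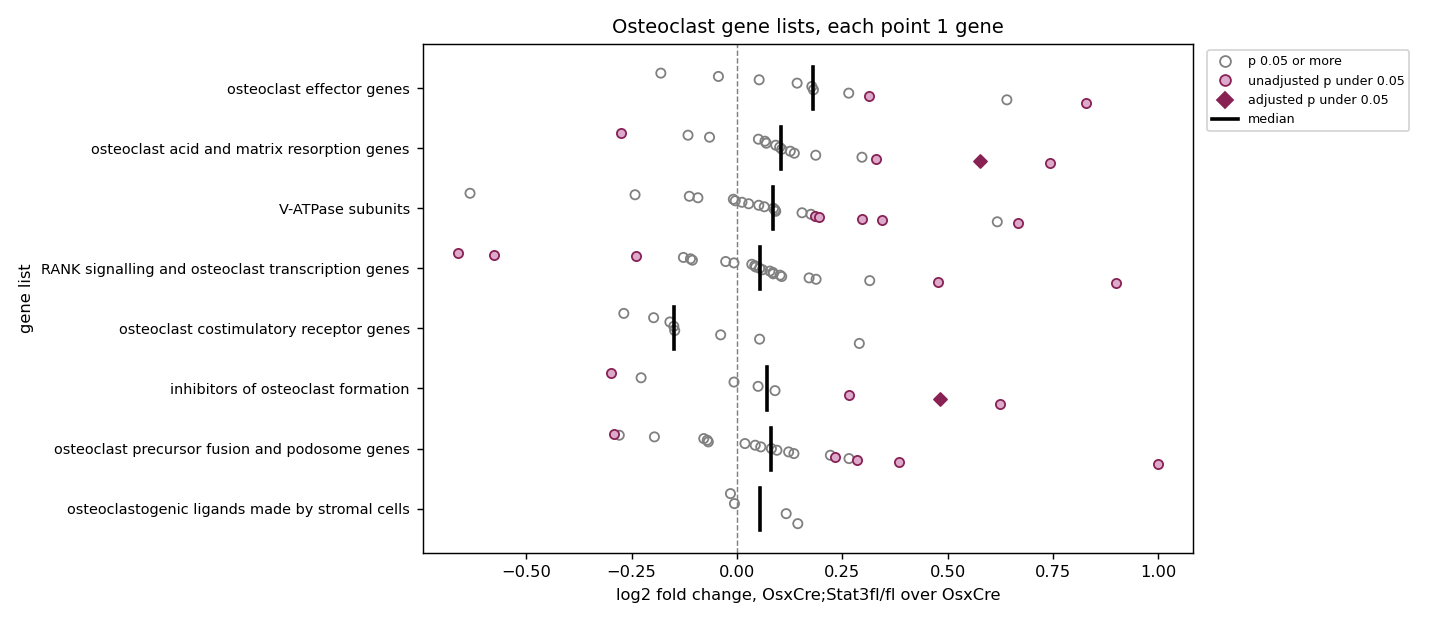
Log2 fold change (horizontal axis) of each tested gene in the osteoclast effector genes and 7 further lists (rows), with the median of each list as a bar. Diamonds mark the 2 genes past an adjusted p of 0.05, *Ctsl* and *Nfkbia*, filled circles the genes past an unadjusted p of 0.05.

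Markers of other cells differed between the genotypes beside these values. Of all genes tested, 0.776% were higher and 0.481% lower at an adjusted p under 0.05, and 8.34% were lower at an unadjusted p under 0.05. The summed level of 8 macrophage markers was between 413 and 443 CPM in OsxCre and between 502 and 537 CPM in the libraries labelled OsxCre;Stat3fl/fl, with 1 of 8 past the adjusted p, higher. Of the 8, 7 had a positive log2 fold change and 1 a negative one. Positive and negative log2 fold changes numbered 8 and 2 for the osteoclast effector genes and 13 and 3 for acid and matrix resorption. They numbered 5 and 3 for the inhibitors and 2 and 6 for the costimulatory receptor genes tested. Over all genes tested, 49.3% were positive. Summed skeletal muscle markers (6 genes, 1 past the adjusted p, higher) were also higher, from between 25968 and 28049 CPM to between 31109 and 46338 CPM. The summed neutrophil markers were between 276 and 477 CPM in OsxCre and between 118 and 195 CPM in the libraries labelled OsxCre;Stat3fl/fl, with 1 of the 6 tested past the adjusted p, lower, and 5 of the 6 with a negative log2 fold change. The summed erythroid markers were between 7229 and 9416 CPM and between 3604 and 6578 CPM, with 0 of the 7 tested past the adjusted p by edgeR, 3 lower at an unadjusted p under 0.05, and *Hbb-b1* and *Hbb-b2* at 0 in every library. The summed osteoblast markers overlapped, a sum that is mostly *Col1a1*, while 6 of the 7 had a negative log2 fold change (median -0.25) and 1, *Ibsp* (named after its values were seen), passed the adjusted p, lower (log2 fold change -0.66, adjusted p = 0.0213). Summed endothelial, B-lymphoid, chondrocyte and neuron markers overlapped. The part of these cell types in the values of the osteoclast genes was not tested.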

How the data were processed

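RNA was extracted with TRIzol from the parietal bone of 3 newborns per genotype and made into TruSeq libraries. The authors deposited whole-number read counts per gene symbol, not normalized. The labels name HISAT2 and GRCm38, whereas the Methods of the study describe TopHat, mm9 and Cufflinks. The counting program, annotation and strand setting are not given in the sources used here.

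The genes and lists were chosen with earlier results of these data known. Low genes were dropped by filterByExpr (at least 10 counts, and 15 in total), libraries were scaled by TMM and genotypes were compared with edgeR 4.0.16 (R 4.3.3) by its quasi-likelihood test, two-sided, on 15600 genes, with Benjamini-Hochberg adjustment over all of them. The fit was tested on simulated counts, where it called 52.3% of 195 genes changed 2-fold at an adjusted p under 0.05, with 11 other calls. A 2-fold difference in a single gene can thus be missed. That share is pooled over genes of all levels, and the share for the 10 genes was not simulated. The CPM of each of the 10 genes and the paralog ratios were also compared by a two-sided exact permutation test. Each p-value sets the difference between the genotypes against the spread between these libraries. No pair of libraries was a duplicate (chi-square per degree of freedom 7.51 to 15.6), and TMM factors were 0.932 to 1.04. Depth limits genes such as *Calcr*.

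Named were the 10 genes, *Stat3*, the 4 genes with the smallest p of each list, 4 paralogs and the 5 genes most like the 10. Of these, 1 list gene is counted in its list and not reported singly here. Alternatives were other scalings, filters and tests (DESeq2 1.42.0, limma 3.58.1), the replicate block, and leaving out each library. Positions and promoters came from RefSeq GRCm38.p6, and lengths from GENCODE vM1 on NCBIM37, matched by symbol or synonym (*Dcstamp* as Tm7sf4, *Ocstamp* as 4833422F24Rik). *Adgre1* was matched as Emr1.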

Additional observations from a re-analysis of the deposited data

How the results depend on the processing

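The scalings that corrected for library size, the filters, the other tests and the replicate block gave the same direction as reported for each of the 10 osteoclast genes. Without scaling, the log2 fold changes turned to -0.33 for *Ctsk*, -0.12 for *Dcstamp*, -0.21 for *Atp6v0d2*, -0.24 for *Tcirg1*, -0.063 for *Itgb3*, -0.20 for *Nfatc1*, -0.26 for *Stat3*, -0.044 for *Rab7*, -0.033 for *Atp6v0c*, -0.077 for *Atp6v1h*, -0.19 for *Atp6v1c1*, -0.10 for *Siglec15*, -0.10 for *Id2*, -0.091 for *Cbl*, -0.14 for *Cd9*, -0.26 for *Csf1*, -0.23 for *Il34*, -0.32 for *Atp6v0d1*, -0.23 for *Nr2f2*, -0.32 for *E130308A19Rik*, -0.040 for *Lhx6*, -0.11 for *Kit* and -0.29 for *Tapbp*, and the medians to -0.20 for the osteoclast effector genes, -0.28 for acid and matrix resorption, -0.29 for V-ATPase, -0.33 for RANK signalling, -0.52 for costimulatory receptors, -0.31 for inhibitors, -0.29 for fusion and podosomes and -0.32 for stromal ligands. The libraries labelled OsxCre;Stat3fl/fl held fewer counts, which that setting leaves in. In that setting 5572 of 15600 genes passed the adjusted p, 5451 of them lower. Genes past the adjusted p were then 1 osteoclast effector gene (lower), 3 for acid and matrix resorption, 6 V-ATPase, 6 RANK signalling, 3 costimulatory, 2 inhibitors and 5 fusion and podosome. Past the unadjusted p were 1 osteoclast effector gene higher and 1 lower, against 186 higher and 7619 lower of all 15600 genes. Of the other lists, 10 V-ATPase, 10 RANK signalling, 5 costimulatory, 2 inhibitor and 8 fusion and podosome genes were past the unadjusted p. With library totals these were 1 effector gene higher at an unadjusted p (against 924 of all 15600 genes), 1 RANK signalling gene and 0 inhibitors at an adjusted p, and 3 V-ATPase and 2 fusion genes at an unadjusted p. The effector genes past the adjusted p, higher, numbered 1 with no filter, with DESeq2 and with limma-voom. DESeq2 gave 2 acid and matrix genes, 1 V-ATPase and 1 RANK signalling gene at an adjusted p, and 3 V-ATPase and 3 fusion genes at an unadjusted p. V-ATPase genes numbered 3 with no filter, and fusion genes 3 with upper-quartile scaling. Same-numbered libraries did not deviate together (r = -0.10, -0.53 and -0.07), so no pairing by number was seen. Whether libraries shared a litter or batch was not tested. With the replicate block 0 acid and matrix genes and 0 inhibitors passed the adjusted p, 3 V-ATPase and 2 fusion genes the unadjusted p, 1 gene of 15600 was called in all, against 196, and the adjusted p of *Ocstamp* was 0.205. Leaving out 1 library gave 1 to 2 effector genes higher at an unadjusted p, against 957 to 1336 of the 15830 to 16210 genes tested in those fits. It gave 0 to 0 acid and matrix genes and 0 to 0 inhibitors at an adjusted p, 0 to 1 RANK signalling genes at an adjusted p, and at an unadjusted p 3 to 6 V-ATPase, 3 to 5 RANK signalling, 0 to 1 costimulatory, 2 to 4 inhibitor and 2 to 5 fusion genes. Log2 fold changes ran from -0.0093 to 0.17 for *Ctsk*, -0.23 to 0.19 for *Oscar*, -0.15 to 0.21 for *Tnfrsf11b*, -0.33 to 0.31 for *Tnfsf11*, -0.012 to 0.094 for *Atp6v0d1* and -0.0541 to 0.0251 for *Atp6v0a2*. Apart from the missing scaling, the causes were not tested.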
